A study of Mus musculus with 8 samples.

Results

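The NMDA receptor is a glutamate-gated ion channel of excitatory synapses, and its subunits are encoded by a small gene family. The genes described here are Grin1, Grin2a, Grin2b, Grin2c, Grin2d and Grin3a, which were taken by name from the table of normalized counts and are 6 of its 34620 gene names. All 6 passed the minimum for the comparison, a mean normalized count of 1, as did 19789 genes in total. The study sequenced total RNA, after removal of ribosomal RNA, from the hippocampus and the pre-frontal cortex (PFC) of untreated C57Bl6 mice aged 7 to 9 weeks. Each region has 4 libraries, and each library was made from the pooled tissue of 2 mice, so the spread between libraries is a spread between pools and not between single animals. The age is that of the labels, and the methods also give an older, overlapping range for the dissected mice. By the methods 8 mice were used in all, so both regions may come from the same pools. Which libraries share a pool is not stated, and the tests treat the 8 libraries as independent. By their labels the 2 groups differ by region alone, and neither carries a transgene or received an agent. A normalized count is the number of reads of a gene divided by the size factor of its library. A fold change above 0 on the log2 scale means higher in the hippocampus.

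As background, a functional NMDA receptor contains the obligatory GluN1 subunit, encoded by Grin1, which binds glycine or D-serine. It is joined by GluN2 subunits, encoded by Grin2a to Grin2d, which bind glutamate and set the kinetics of the channel, or by GluN3 subunits. GluN2B prevails in the young rodent forebrain and GluN2A gains weight as synapses mature, which is why the ratio of their transcripts is often measured. GluN2C is best known from cerebellar granule cells and is also made by astrocytes in rodents, GluN2D is found in diencephalon, brainstem and forebrain interneurons, and GluN3A lowers the calcium permeability of the receptor and is abundant in juvenile brain.

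The subunit genes share coding sequence, and reads can only be assigned to 1 of them where their sequences differ. Reads were 75 bases long before trimming. In all 15 pairs of the longest coding transcripts of GENCODE M1, every ungapped pair of stretches of 75 bases on the same strand differed at 5 or more bases. The closest pair was Grin2a with Grin2d at 5 mismatches, Grin2a and Grin2c as well as Grin2b and Grin2c came within 7, and pairs with Grin1 or Grin3a differed at 20 or more. Shorter stretches were shared, with the longest identical run, 34 bases, between Grin2b and Grin2c, so a strongly trimmed read could fit more than 1 gene. Shown next are the 75 bases where Grin2a and Grin2b, the genes of the ratio described below, are most alike, with the 8 bases at which they differ in capitals. Both stretches are coding sequence read 5′ to 3′ on the minus strand of NCBIM37, in exon 9 of Grin2a (chr16:9657801-9657875) and in exon 10 of Grin2b (chr6:135724835-135724909).
Grin2a: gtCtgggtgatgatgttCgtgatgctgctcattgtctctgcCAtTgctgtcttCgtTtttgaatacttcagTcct
Grin2b: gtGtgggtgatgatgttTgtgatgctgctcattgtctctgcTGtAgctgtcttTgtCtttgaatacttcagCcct
These stretches are 89.3% identical, and the longest run that Grin2a and Grin2b share anywhere in the compared transcripts is 24 bases.

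In the GENCODE M1 annotation of NCBIM37 the 6 genes lie on 6 chromosomes, all on the minus strand, and each is protein-coding. Grin1 spans chr2:25146701-25174707, Grin2a chr16:9577803-9995014 and Grin2b chr6:135679844-136123529. The last 2 are long genes of 417 and 444 kb, of which the merged exons make up 5296 and 8172 bases. Grin2c spans chr11:115110483-115128557, Grin2d chr7:53087253-53126298 and Grin3a chr4:49674483-49858616. Grin2a and Grin2d share no bases with another annotated gene. Grin2b shares up to 143 exon bases (1.75%) with a gene on the other strand and Grin2c 91 (1.81%), and those genes had means of 6.78 normalized counts or fewer.

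The libraries held between 3164964 and 16636500 reads assigned to genes, with hippocampus replicate 4 the shallowest and hippocampus replicate 1 the deepest. Hippocampus replicate 2 stood apart from the other libraries, with an array weight of 0.29 in limma where the others had 0.67 to 3.01. Most markers of hippocampal and cortical projection neurons differed in the direction of the labels. Among 6 markers of dentate granule neurons 5 had higher counts in hippocampus tissue, as had 6 of 7 CA pyramidal neuron markers. In the PFC 9 of 10 cortical projection neuron markers were higher (adjusted p under 0.05 from limma, which 5.68% of all genes tested passed). PFC libraries held hippocampal markers too, with dentate granule neuron markers summing to 1237 to 2697 normalized counts, against 4299 to 5318 in the hippocampus. Of the other marker lists, all 10 oligodendrocyte genes, 6 of 8 choroid plexus genes, 3 of 6 thalamic genes, 2 of 8 oligodendrocyte precursor genes and 1 of 10 astrocyte genes were higher in the hippocampus. All 10 genes of striatal projection neurons, 4 of 7 olfactory bulb genes, 1 of 10 pan-neuronal genes and 1 of 8 GABAergic interneuron genes were higher in the PFC, and none of the 9 microglia or 8 endothelial genes passed. No marker was at 0 in all libraries. Xist, which is transcribed from the inactive X chromosome, had 1670 to 5233 normalized counts and the Y-linked gene Ddx3y 155 to 393, so every library held RNA of both kinds although the methods call the mice male. In hippocampus replicates 2 and 3 and PFC replicates 1 and 3, Xist was higher and Ddx3y lower than in the other libraries of the same region. The part of this in the spread within a region was not tested.

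Grin2a was the subunit gene past the threshold between the regions in the fit reported here, and the other fits did not all keep this call. It had 1309.95, 1408, 1378 and 1331 normalized counts in hippocampus replicates 1 to 4 and 1199, 1082, 914 and 984 in PFC replicates 1 to 4. All 4 hippocampus libraries lay above all 4 PFC libraries, and the hippocampus values were the tighter group. The means were 1356 ± 44.4 in hippocampus libraries and 1045 ± 124 in PFC libraries (SD, n = 4), which is 1.30-fold. The log2 fold change was 0.38 (SE 0.10, 95% interval 0.17 to 0.60) with adjusted p = 0.037 from limma. Of the 6 subunit genes 1, Grin2a, passed the threshold, where 5.68% of all genes tested passed (2.55% higher in the hippocampus and 3.13% higher in the PFC). It was also the 1 of 6 with an unadjusted p under 0.05, where 16.9% of all genes had one, and the 1 of 6 whose regions did not overlap, where 11.8% of all genes did. Its p ranked 965 among the 1124 genes called, close to the threshold. On the recovered reads the adjusted p was 0.036 in edgeR, where 5.91% of all genes passed, and 0.0098 in DESeq2, where 9.18% of 15945 genes passed. With no filter on low counts it was 0.052 in limma, and the call was lost. The call was kept without hippocampus replicate 2 (adjusted p = 0.012 from limma) and without PFC replicate 1 (0.021). It was lost without hippocampus replicate 1 (0.081), 3 (0.11) or 4 (0.077) and without PFC replicate 2 (0.070), 3 (0.16) or 4 (0.12), while the log2 fold change stayed between 0.32 and 0.45. Between 576 and 3027 reads per library stood behind these values. In bulk tissue, fewer cells that express a gene and less of its RNA per cell cannot be told apart, here and for the genes below.

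**Figure D1:**
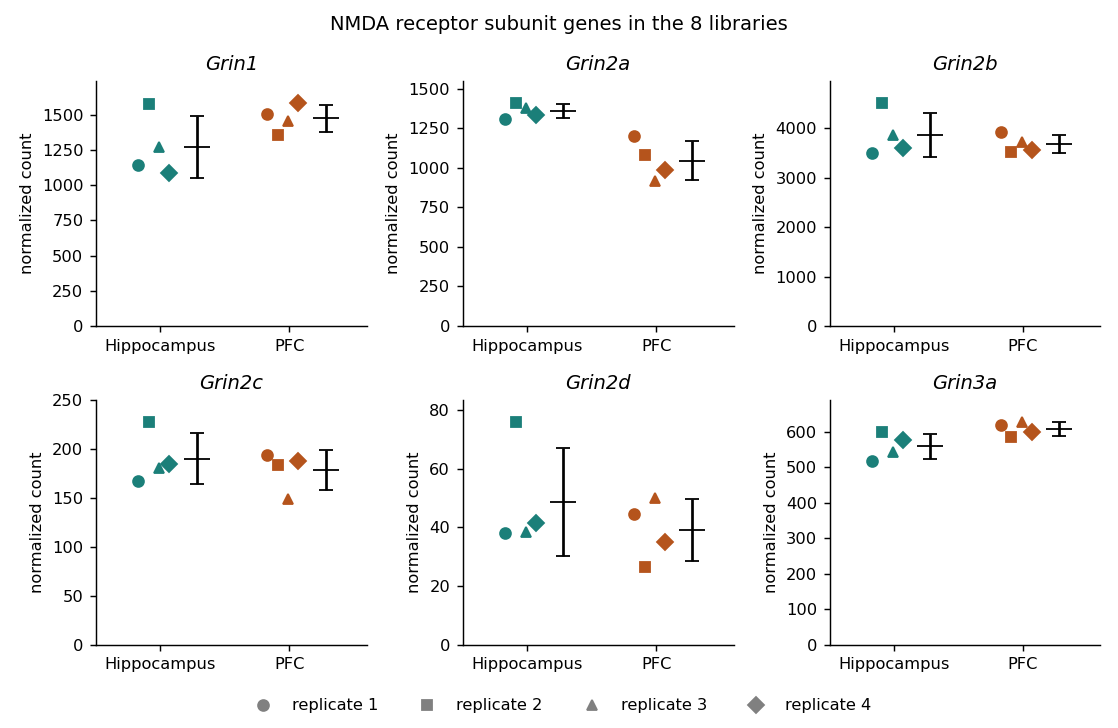
Normalized counts of the 6 NMDA receptor subunit genes (vertical axes, each from 0) in the hippocampus and PFC libraries, with 1 symbol per replicate number; the bar beside each group is the mean and SD of 4 libraries. The hippocampus values of Grin2a, 1309.95 to 1408, lie above its PFC values, 914 to 1199, and hippocampus replicate 2 is the highest hippocampus library for each of the 6 genes.

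Grin1, the gene of the obligatory subunit, pointed the other way without passing the threshold. Its normalized counts were 1145, 1578, 1273 and 1090.4 in hippocampus replicates 1 to 4 and 1506, 1356, 1457 and 1582 in the PFC. Of the hippocampus libraries 3 lay below every PFC library, and replicate 2 lay within the PFC range. The means were 1272 ± 218 and 1475 ± 94.9 (SD, n = 4), and the log2 fold change was -0.23 (SE 0.12, 95% interval -0.47 to 0.02, adjusted p = 0.35 from limma). This value depended on a single library. Without hippocampus replicate 2 the log2 fold change was -0.34 with adjusted p = 0.013 from limma, where 11.3% of all genes passed, and with array weights, which give this library little influence, it was -0.29 with adjusted p = 0.030 (12.3% of all genes). The exons of Grin1 overlap another annotated transcript, and how reads of the shared bases were assigned is not stated. The antisense transcript E130003G02Rik shares 1307 bases with its annotated exons, 13.5% of them, and reads were counted without strand. That transcript had a mean of 14.6 normalized counts, and Grin1 had 472 to 2646 reads per library.

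Grin2b had the most reads of the family and was nearly level between the regions. Its normalized counts were 3498, 4505, 3862 and 3599 in hippocampus replicates 1 to 4 and 3925, 3513, 3720 and 3560.0 in the PFC. The regions overlapped, with hippocampus replicate 2 highest and hippocampus replicate 1 lowest of all 8 libraries. The log2 fold change was 0.07 (95% interval -0.15 to 0.28, adjusted p = 0.83 from limma), an interval that reaches from 0.90-fold to 1.21-fold. Its sign turned without hippocampus replicate 2 (-0.010).

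Grin3a was slightly lower in the hippocampus by the means, within the spread. Grin3a had 517, 598, 541 and 575 normalized counts in hippocampus replicates 1 to 4 and 618, 584, 627 and 598 in the PFC. All hippocampus libraries lay below the PFC mean, and the regions overlapped only through hippocampus replicate 2. The log2 fold change was -0.12 (95% interval -0.34 to 0.09, adjusted p = 0.64 from limma). Ppp3r2, which encodes a calcineurin regulatory subunit of the testis, lies within the span of Grin3a on the same strand and shares none of its annotated exon bases.

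The rarer GluN2 genes did not separate the regions. Grin2c had 167, 228, 181 and 185 normalized counts in hippocampus replicates 1 to 4 and 194, 183, 149 and 188 in the PFC, so its ranges overlapped. Its log2 fold change was 0.09 (95% interval -0.22 to 0.40, adjusted p = 0.85 from limma), and with array weights it was -0.0023. Grin2d had 38.1, 76.0, 38.3 and 41.6 normalized counts in hippocampus libraries against 44.6, 26.4, 50.1 and 35.0 in the PFC. Hippocampus replicate 2 stood far above the other 7 libraries, which overlapped. The log2 fold change was 0.28 (95% interval -0.31 to 0.88, adjusted p = 0.71 from limma), and without that library it was 0.051. The interval reaches from 0.80-fold to 1.84-fold, and each library held 18 to 88 reads of Grin2d. Grin3b, the remaining gene of the family, had 0 to 7 reads per library and means of 2.40 ± 2.43 and 1.95 ± 2.34 normalized counts (SD, n = 4). The limit that a count of 0 allows is 3 reads, or 1.30 to 6.93 normalized counts by library, and covers counting error only. Hippocampus replicates 1, 2 and 3 and PFC replicate 4 lay above this limit, with 4, 6, 4 and 7 reads, and the other libraries lay below it. In addition, 32.1% of the annotated exon bases of Grin3b are shared with ORF61, a gene on the other strand, so that Grin3b gives no comparison.

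To compare levels between genes, the normalized counts were divided by the length of the annotated exons of each gene in kb, with overlapping exons merged. Grin2b was highest in both regions on this scale, at 473 ± 55.4 normalized counts per kb in hippocampus libraries and 450.2 ± 22.8 in PFC libraries (SD, n = 4). Grin2a followed at 256 ± 8.37 and 197 ± 23.4 and Grin1 at 131 ± 22.5 and 152 ± 9.78, and the ranges of these neighbours did not overlap within a region. Grin2c at 37.8 ± 5.20 and 35.4 ± 4.01 and Grin3a at 35.4 ± 2.29 and 38.4 ± 1.24 per kb overlapped in both regions. Grin2d came next, at 8.27 ± 3.14 and 6.65 ± 1.79, and Grin3b last, at 0.73 ± 0.74 and 0.59 ± 0.71. The place of Grin1 rests on its length. Its merged exons span 9700 bases while its longest transcript has 4276 and its longest coding sequence 2877, and the 14 annotated transcripts were not told apart. Per kb of the longest transcript or coding sequence Grin1 stood above Grin2a and Grin3a above Grin2c in both regions, and Grin2b remained first. The ranges of Grin1 and Grin2a overlapped in the hippocampus per kb of the longest transcript.

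**Figure D2:**
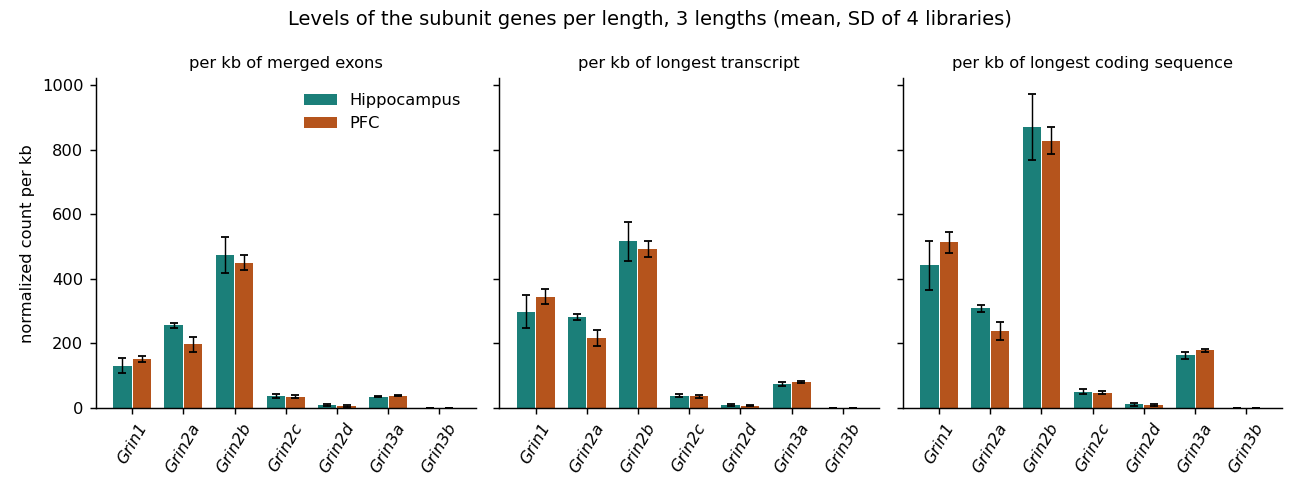
Normalized count per kb (vertical axis, from 0) of the subunit genes with 3 choices of length, in the hippocampus and the PFC; bars are means and error bars the SD of 4 libraries. Grin2b is highest with each length, at 473 and 450.2 per kb of merged exons, while the order of Grin1 and Grin2a turns with the length.

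The ratio of Grin2a to Grin2b was higher in the hippocampus than in the PFC. It is a ratio of reads within a library and therefore does not depend on the size factor. In hippocampus replicates 1 to 4 the ratio was 0.374, 0.312, 0.357 and 0.370, and in PFC replicates 1 to 4 it was 0.305, 0.308, 0.246 and 0.276. The regions did not overlap, but hippocampus replicate 2 stood only just above PFC replicate 2. The 95% Wilson interval of hippocampus replicate 2, 0.295 to 0.331, held the ratios of both PFC replicates 1 and 2, so these 3 libraries differed by less than counting error. The means were 0.353 ± 0.028 and 0.284 ± 0.029 (SD, n = 4), and the mean log2 ratio was 0.32 higher in the hippocampus (SE 0.10), which is 1.25-fold. In an exact two-sided permutation test with 70 arrangements this gave p = 0.029, the smallest that 4 against 4 can give. Any 4 values that lie wholly above the other 4 give this p, so it adds nothing to the lack of overlap. The ratio rests on the same counts of Grin2a as its fold change and is not a separate result. As a share of the reads of both genes, Grin2a reached 26.1% ± 1.57 in hippocampus libraries and 22.1% ± 1.79 in PFC libraries. Per kb of merged exons the ratio lay between 0.48 and 0.58 in the hippocampus and between 0.38 and 0.48 in the PFC, so that Grin2b exceeded Grin2a in every library.

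Across all GluN2 genes per kb of merged exons, Grin2a held 33.2% ± 1.91 of the sum in hippocampus libraries and 28.5% ± 2.05 in PFC libraries (SD, n = 4). Grin2b held 60.9% ± 1.47 and 65.3% ± 2.18, with 59.9% to 63.0% in hippocampus libraries and 63.7% to 68.4% in PFC libraries. The remainder was Grin2c, at 4.86% ± 0.26 and 5.14% ± 0.51, and Grin2d, at 1.05% ± 0.29 and 0.96% ± 0.26. These shares are a description, and they were not tested apart from the ratio.

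The ratios of Grin1 to Grin2a, Grin2b and Grin2c lay apart as well, while those to Grin2d and Grin3a overlapped. The reads of Grin1 per read of Grin2b numbered 0.327, 0.350, 0.330 and 0.303 in hippocampus replicates 1 to 4 and 0.384, 0.386, 0.392 and 0.444 in the PFC. Hippocampus replicate 2, whose counts of both genes were the highest of the hippocampus, fell in with its group in this ratio. Per read of Grin2a there were 0.874, 1.12, 0.924 and 0.819 reads of Grin1 in hippocampus libraries and 1.26, 1.25, 1.59 and 1.61 in the PFC, again without overlap. Grin2a per read of Grin3a likewise lay at 2.31 to 2.55 in the hippocampus and 1.46 to 1.94 in the PFC. Of the 15 ratios between the 6 genes, 6 did not overlap between the regions, namely the ratios of Grin1 to Grin2a, Grin2b and Grin2c, of Grin2a to Grin2b and Grin3a, and of Grin2c to Grin3a. Ratios that share a gene are not independent, and only that of Grin2a to Grin2b was tested. The share of ratios between other genes that lie apart was not computed, so this count is a description only.

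**Figure D3:**
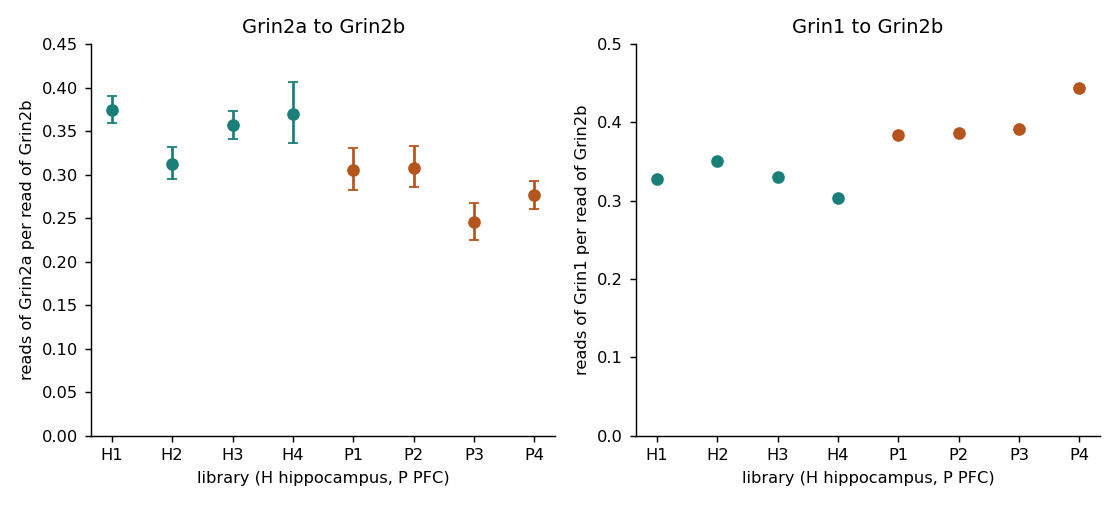
Reads of Grin2a per read of Grin2b (left) and of Grin1 per read of Grin2b (right) in each library (H1 to H4 hippocampus, P1 to P4 PFC; vertical axes from 0); bars on the left are 95% Wilson intervals of counting error. The Grin2a ratio spans 0.312 to 0.374 in the hippocampus and 0.246 to 0.308 in the PFC, and the Grin1 ratio 0.303 to 0.350 and 0.384 to 0.444.

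The make-up of the tissue differed too. The 10 pan-neuronal markers summed to 63233 to 77281 normalized counts in hippocampus libraries and 75316 to 82501 in PFC libraries. The mean sum was lower in the hippocampus, and 1 of the 10 genes passed the threshold. Hippocampus replicate 2, the library with the highest counts of the subunit genes in its region, had the lowest sum of these markers. Snap25 alone had 18656 to 33587 normalized counts in hippocampus libraries, so the sum rests largely on a few abundant genes. Oligodendrocyte markers summed to 118187 to 127730.3 normalized counts in hippocampus libraries and 57428 to 83604 in PFC libraries, and CA pyramidal neuron markers to 5249 to 5946 and 1805 to 3430.4. Dentate granule neuron markers summed to 4299 to 5318 in the hippocampus and 1237 to 2697 in the PFC. Striatal projection neuron markers summed to 1371 to 1643 in the hippocampus and 2743 to 5344 in the PFC, and GABAergic interneuron markers to 5540 to 6834 and 6734 to 7747. Their part in the differences of the subunit genes was not tested.

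Genes whose pattern over the 8 libraries was most like that of a subunit gene were taken by Pearson correlation among 12957 genes whose mean normalized count was 20 or more. For Grin2a these were Akap13, an anchoring protein of protein kinase A, Doc2b, a calcium sensor of transmitter release, and Tdo2. Tdo2 encodes a tryptophan dioxygenase and is in the list of dentate granule neuron markers. For Grin1 the nearest genes were Kif21b, a kinesin, Trank1 and Hpcal1, a neuronal calcium sensor. For Grin2b they were Jph4, a junctophilin of neurons, the lncRNA Miat and Pgp. For Grin2c the nearest were Wdr46, Sema6c and Klhdc4, for Grin2d Cox17, Rnpepl1 and 6330408A02Rik, and for Grin3a Stmn1, Nfu1 and Ranbp1. The coefficients lay between 0.95 and 0.99 over 8 libraries. With 302 genes at 0.9 or above for Grin2a, 227 for Grin1 and 194 for Grin2b, the nearest genes stood among many, and the points share the depth and tissue make-up of each library. Between Grin1 and Grin2a the coefficient was -0.44, and -0.75 over the 7 libraries without hippocampus replicate 2. That between Grin2b and Grin2d, 0.85, fell to 0.56 over the same 7 libraries.

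Around the receptor, most genes of its supply, scaffolding, signalling and trafficking did not pass the threshold between the regions. The share that passed was above that over all genes tested, which include genes down to a mean normalized count of 1. A share among genes of like counts was not computed, and the lists were chosen with earlier results known. Of 53 partner genes 3 were higher in hippocampus tissue and 4 in PFC tissue (adjusted p under 0.05 from limma), which is 13.2% where 5.68% of all genes tested passed, and 12 (22.6%) had regions that did not overlap, where 11.8% of all genes did. The count rested on the libraries, with 16 genes past the threshold without hippocampus replicate 2, 4 each without hippocampus replicate 1, 3 or 4, 2 without PFC replicate 3 and 3 without PFC replicate 4. The number of all genes past the threshold moved in the same directions, from 1124 to 2224 (11.3%) without hippocampus replicate 2, to 733, 668 and 843 without hippocampus replicate 1, 3 and 4, and to 575 and 578 without PFC replicate 3 and 4. None of the 11 genes that supply or clear the co-agonists passed, neither Srr, the serine racemase that makes D-serine (log2 fold change -0.03, adjusted p = 0.94 from limma), nor Slc6a9, the glial glycine transporter (0.26, adjusted p = 0.66). Slc1a4, a transporter of small neutral amino acids, was 1 of the 11 with an unadjusted p under 0.05 in limma (adjusted p = 0.28), beside 16.9% of all genes, and the median log2 fold change of the list was 0.10, beside 0.0038 over all genes tested. These 3 genes were singled out after their values were seen.

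Among 15 scaffolds and proteins that bind receptor tails, 2 were higher in each region. Dlg1, which encodes the scaffold SAP97, had 960.3, 727, 879.7 and 919 normalized counts in hippocampus replicates 1 to 4 and 1245, 1240.4, 1471 and 1627 in the PFC. Its regions lay well apart, and the log2 fold change of -0.68 (SE 0.12, adjusted p = 0.0023 from limma) passed in every leave-one-out fit. Rasgrf1 and Rasgrf2, Ras exchange factors, went opposite ways. Rasgrf1, which binds GluN2B, had means of 5868 ± 432 normalized counts in hippocampus libraries and 4509 ± 298 in PFC libraries (log2 fold change 0.38, adjusted p = 0.025 from limma). Rasgrf2 had 845 ± 58.7 and 1129 ± 54.6 (log2 fold change -0.42, adjusted p = 0.015 from limma; SD, n = 4), and neither gene overlapped between the regions. Nos1, the neuronal nitric oxide synthase that the receptor drives through its scaffold, had 481, 649, 543 and 478 normalized counts in hippocampus replicates 1 to 4 and 427, 367, 391 and 356 in PFC libraries (log2 fold change 0.47, adjusted p = 0.032 from limma). Rasgrf1 kept its call only without hippocampus replicate 2 or PFC replicate 1, with adjusted p up to 0.10 from limma without the others. Rasgrf2 lost it without hippocampus replicate 1, 3 or 4 or PFC replicate 3 (up to 0.076), and Nos1 without hippocampus replicate 3 or PFC replicate 2, 3 or 4 (up to 0.12). The main scaffold Dlg4, which encodes PSD-95, had a log2 fold change of -0.12 (95% interval -0.43 to 0.20, adjusted p = 0.79 from limma). Camk2a, the kinase subunit that docks on GluN2B, had 0.31 (95% interval 0.01 to 0.62, adjusted p = 0.28). The last 2 genes were chosen after their values were seen.

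Among 15 kinases and phosphatases that act on the receptor or follow it, 1 passed, beside 5.68% of all genes tested, and 1 gene does not set the list apart. Ppp3ca, a catalytic subunit of calcineurin, had 14230, 11445, 13298 and 15018 normalized counts in hippocampus replicates 1 to 4 and 9521, 10545, 9204 and 7936 in the PFC. The regions did not overlap, and its log2 fold change of 0.54 (SE 0.11, adjusted p = 0.0082 from limma) passed in all 8 leave-one-out fits. The median log2 fold change of this list was 0.13, and that of the scaffold list -0.11.

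Of 12 genes of trafficking and turnover, 2 were higher in the PFC and none in the hippocampus, beside 3.13% and 2.55% of all genes tested. Both of the genes that passed belong to the Lin7 family, adaptors of the complex that carries GluN2B along microtubules with the kinesin Kif17. Lin7b had 462 ± 44.5 normalized counts in hippocampus libraries and 723 ± 170 in PFC libraries (SD, n = 4), with a log2 fold change of -0.62 (SE 0.15, adjusted p = 0.019 from limma). Lin7a had 1032 ± 74.3 and 1381 ± 106, with a log2 fold change of -0.42 (SE 0.10, adjusted p = 0.018 from limma). Each passed in 5 of 8 leave-one-out fits, and both were lost without PFC replicate 3 or 4, Lin7b also without hippocampus replicate 4 and Lin7a without hippocampus replicate 1, with adjusted p up to 0.097 for Lin7b and 0.093 for Lin7a from limma. The family did not move as a whole, since Lin7c had a log2 fold change of 0.50 (adjusted p = 0.071 from limma), and Kif17 had -0.43 (adjusted p = 0.31). Both were singled out after their values were seen.

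**Figure D4:**
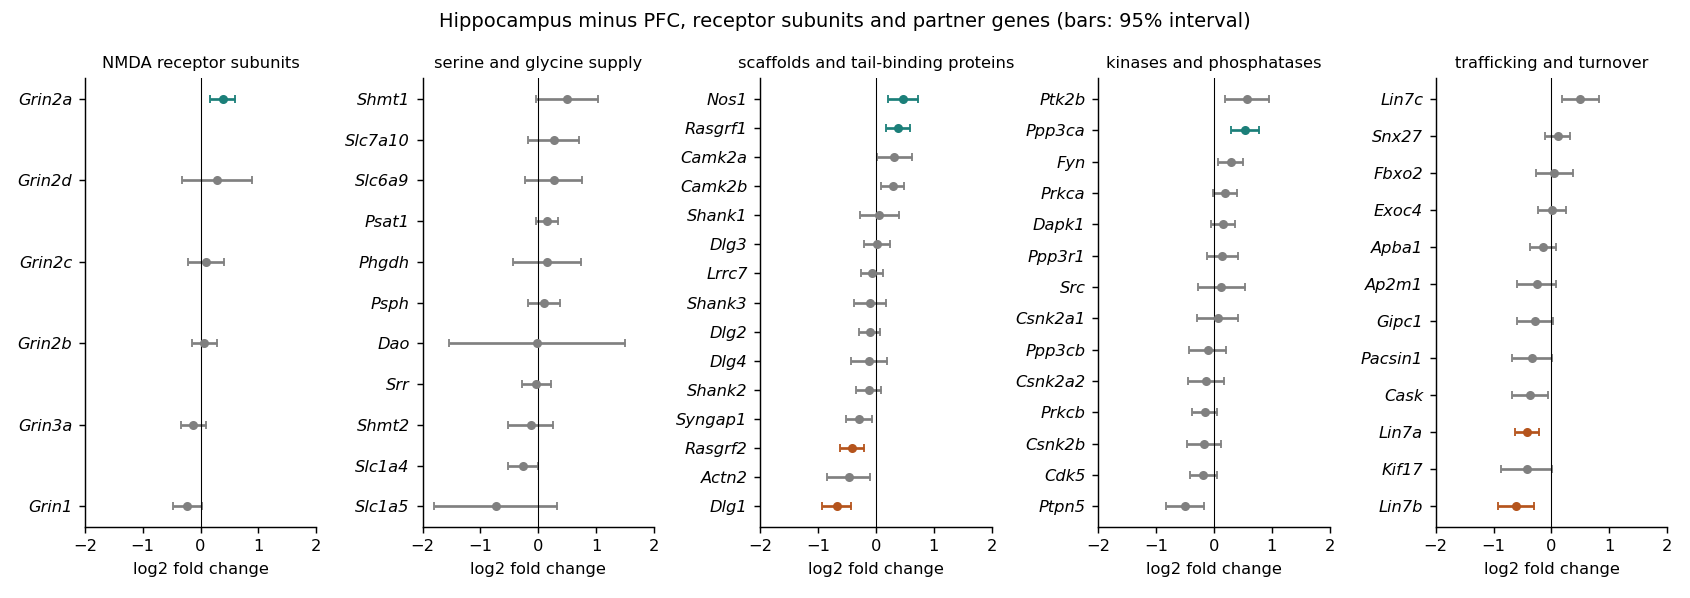
Log2 fold change (hippocampus minus PFC, horizontal axes) of the subunit genes and the 4 lists of partner genes, with 95% intervals from limma; coloured points passed an adjusted p of 0.05 and grey points did not. The list of kinases and phosphatases is drawn without 1 of its 15 genes. Grin2a (0.38) is the coloured subunit gene, and Dlg1 (-0.68) and Ppp3ca (0.54) are the partners that passed in every leave-one-out fit.

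**Figure D5:**
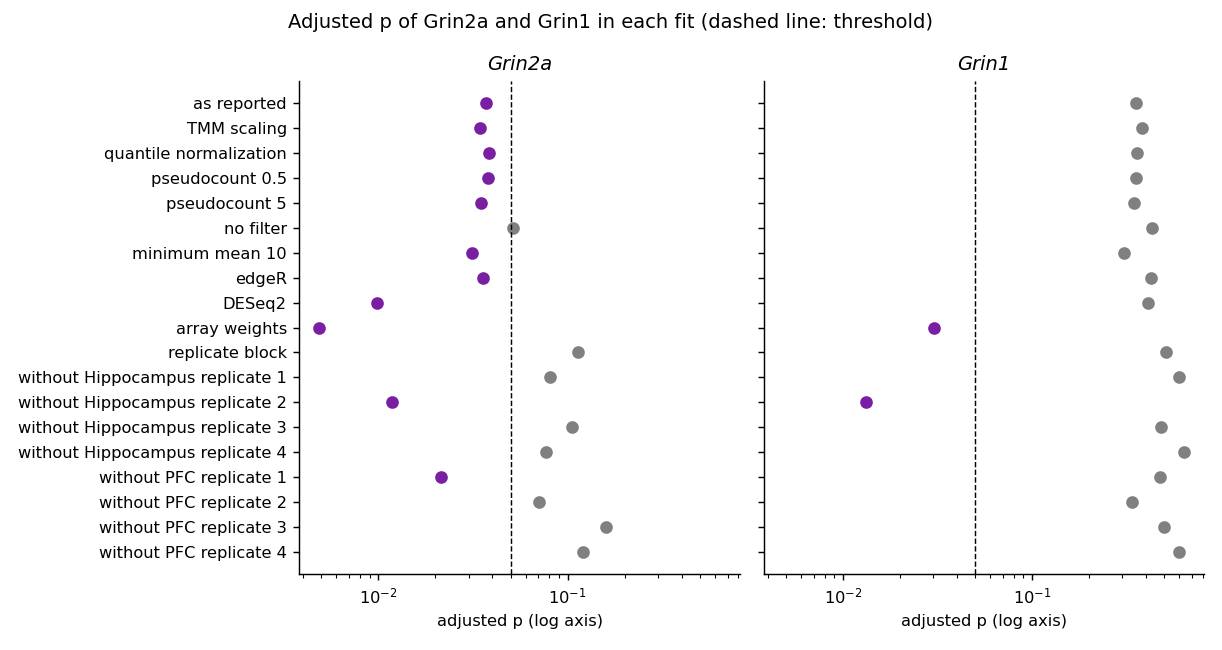
Adjusted p (horizontal log axis, the same for both panels) of Grin2a and Grin1 as reported and in each other fit (vertical axis); the dashed line is the threshold of 0.05, coloured points passed it and grey points did not. Grin2a lies on both sides of the line, from 0.0049 to 0.16, and Grin1 crosses it without hippocampus replicate 2 (0.013) and with array weights (0.030).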

How the data were processed

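The deposited values are a signal per gene name in 8 libraries: reads were counted and scaled by the authors with a DESeq size factor for each library. Each column carries a sample title. Reads of 75 bases were trimmed at a Phred score of 28, aligned to NCBIM37 with TopHat2 2.0.9 and counted per gene name without strand with HTSeq 0.6.0. The DESeq version and the annotation release are not given in the sources used here. Multiplied by the size factor, 100% of the values lay within 1e-06 of a whole number, and these reads entered edgeR 4.0.16, which called 1170 genes, and DESeq2 1.42.0.

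Regions were compared with limma 3.58.1 (variance trend, two-sided) on log2(normalized count + 1), which understates changes of low genes, over genes with a mean of at least 1, with Benjamini-Hochberg adjustment over all of them. Of these, 3350 had an unadjusted p under 0.05 and 1124 passed, 505 higher in the hippocampus. P-values from limma set each difference against the spread between the pooled libraries, drawn towards a trend over all genes. That spread also holds counting error. Alternatives covered scaling, pseudocount, filter, test, array weights, left-out libraries and a replicate block. The methods give 8 mice in all, so the regions may share pools, but no source says which libraries do, and the fit is unpaired. Gene models and lengths are from GENCODE M1 on NCBIM37. Map2 was matched through its older symbol Mtap2. In the kinase and phosphatase list 1 gene is counted but not reported here. The members and lists were chosen with earlier results of these data known. Named were all members, Grin3b, up to 4 genes past the threshold per partner list and the 3 nearest genes per member. Intervals of read shares are 95% Wilson intervals, and they cover counting error only. R was 4.3.3 and scipy 1.17.1.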

Additional observations from a re-analysis of the deposited data

Results flagged for a closer look

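Grin2d in hippocampus replicate 2, at 76.0 normalized counts, lay far from the other 3 hippocampus libraries, which held 38.1 to 41.6. The gap was 0.91 of the range of the group, over Dixon's critical value. This was 1 of 28 groups of 4 libraries examined, where chance flags about 1 in 20. The same library had the highest hippocampus count of each of the 6 subunit genes and the lowest array weight.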

How the results depend on the processing

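The call of Grin2a (log2 fold change 0.38) was lost with no filter on low counts, at 0.38 and adjusted p = 0.052 from limma, where more genes were tested. With a replicate block it was lost as well (0.38, adjusted p = 0.11 from limma), and the exact test of the Grin2a to Grin2b ratio under the block gave 0.32 with p = 0.125, the smallest that 4 pairs allow. The block joins libraries of the same number, whose deviations correlated at -0.32, -0.24, -0.02 and 0.04 for replicates 1 to 4. No source says whether such libraries share a pool, and these correlations cannot decide it. Grin1 passed with array weights (-0.29). Subunit genes past the threshold numbered 0 with no filter or the replicate block, 2 with array weights and 0 to 2 with 1 library left out. Without 1 library the log2 fold changes were -0.34 to -0.16 for Grin1, 0.32 to 0.45 for Grin2a, -0.010 to 0.11 for Grin2b and 0.25 to 0.38 for the log2 ratio of Grin2a to Grin2b, whose exact p of 0.057 is then the smallest possible and says nothing about stability. The sign turned for Grin2b (-0.010, without hippocampus replicate 2) and for Grin2c (-0.0023, array weights). Genes past the threshold with the replicate block numbered 1 scaffold, 1 trafficking gene, 3 partners and 729 of all genes. With array weights they numbered 4 kinases and phosphatases, 4 trafficking genes, 14 partners and 2441 of all genes, and with DESeq2 3 kinases and phosphatases and 11 partners. With 1 library left out they numbered 1 to 7 scaffolds, 1 to 5 kinases and phosphatases, 0 to 4 trafficking genes, 2 to 16 partners and 575 (without PFC replicate 3) to 2224 (without hippocampus replicate 2) of all genes. The other fits without 1 library that moved the last count past 1.5 times were those without hippocampus replicate 1 (733) or 3 (668) and PFC replicate 4 (578). In the order per kb, 6 of 14 places changed with the longest transcript and 6 with the longest coding sequence. The replicate block also ended the calls of Nos1, Rasgrf1, Rasgrf2 and Lin7a, and Rasgrf1 was lost with no filter. The causes were not tested. Depth limits Grin3b, which had 0 to 7 reads per library.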
